A study of Homo sapiens with 9 samples.

Results

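The type II MAGE genes were followed in HEK293 cells with reduced levels of SmcHD1. The 8 genes were taken by name: MAGED1, MAGED2, MAGED4B, MAGEE1, MAGEE2, MAGEF1, MAGEH1 and NSMCE3 (NDNL2 in older tables). Their probes were found through the RefSeq accession that the array gives each probe, which yielded 1 probe for each of the 8 genes, among 42384 probes and 19479 named genes. The family was chosen by the differences of MAGEH1 from the control, which were among the largest rises in both knock-downs, so these are given as a description without a test. The other 7 genes joined by family name. Of the 8 genes, 6 lie on the X chromosome, MAGEF1 lies on chromosome 3 and NSMCE3 on chromosome 15.

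MAGE proteins share a MAGE homology domain, and many of them bind a RING-type ubiquitin ligase and alter its activity or its substrates. Type I genes (MAGEA, MAGEB and MAGEC) are cancer-testis genes of the X chromosome, silent in most adult tissues, whereas type II genes are transcribed in many tissues. MAGED1 is an adaptor of the neurotrophin receptor p75, MAGED2 supports salt transporters of the kidney tubule, and NSMCE3 is a subunit of the SMC5/6 complex. SmcHD1 is a related chromosomal protein, known for its part in silencing the inactive X chromosome.

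HEK293, a line from human embryonic kidney, was infected with retrovirus and kept as stable puromycin-selected cell populations, not single clones. KD3 carried shRNA 3 and KD4 carried shRNA 4, both against SmcHD1, and CTL carried the control hairpin NC5 in the same GFP vector, with no further treatment. Each group was measured on 3 one-color arrays, called biological triplicates in the methods, which do not say whether they came from separate infections. The p-values therefore measure the spread between these arrays, which may be partly technical. The hairpins are shown because the groups are named for them, with the loop shared by all of them in capitals.
shRNA 3: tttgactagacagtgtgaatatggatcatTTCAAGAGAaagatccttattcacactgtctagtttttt
shRNA 4: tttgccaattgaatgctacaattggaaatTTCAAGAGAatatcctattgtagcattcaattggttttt
NC5: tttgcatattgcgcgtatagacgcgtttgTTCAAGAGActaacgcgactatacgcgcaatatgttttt

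The median processed signal of an array was between 119.6 and 181.4, and 75.1% to 79.8% of its probes stood well above background. Replicate arrays had a Pearson r of at least 0.995 across probes. The 3 probes of SMCHD1 retained 49.1% to 51% of the CTL signal in KD3 and 34.4% to 35.2% in KD4. All 9 embryonic kidney and neuronal markers of HEK293 were well above background on every array, but 4 of them fell in both knock-downs and KRT18 rose in KD4. The largest fall was that of PAX2, a kidney transcription factor, with log2 differences of -2.41 in KD3 (limma adjusted p = 2.3e-06) and -2.65 in KD4 (limma adjusted p = 5.6e-07), and the others were NEFM (-1.21 and -1.24), LHX1 (-0.57 and -0.33) and NEFL (-0.33 and -0.41). Of 13 blood, endothelial and fibroblast markers 10 were tested, 1 rose (CD68) and 2 fell (VWF and COL1A1) in KD3, and 1 fell (VWF) in KD4. The log2 of the summed signal of the tested markers was 10.5 to 10.67 in CTL, 10.46 to 10.48 in KD3 and 10.54 to 10.66 in KD4. PECAM1 and COL1A2 were not well above background on any array. The part of these markers in the results was not tested. In such bulk RNA, fewer cells of one kind and less RNA per cell cannot be told apart.

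Signals are quantile-normalized log2 values, and differences are log2 differences between group means from a single limma fit over 32276 probes and 9 arrays. A gene is said to rise or fall when its Benjamini-Hochberg adjusted p over all probes was under 0.05, and is called when the difference was also at least 1.8-fold, the threshold of the methods. KD3 and KD4 were compared with the same CTL arrays. The probe of MAGEE2 was too dim to be tested. The other 7 probes were well above background on all 9 arrays.

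**Figure D1:**
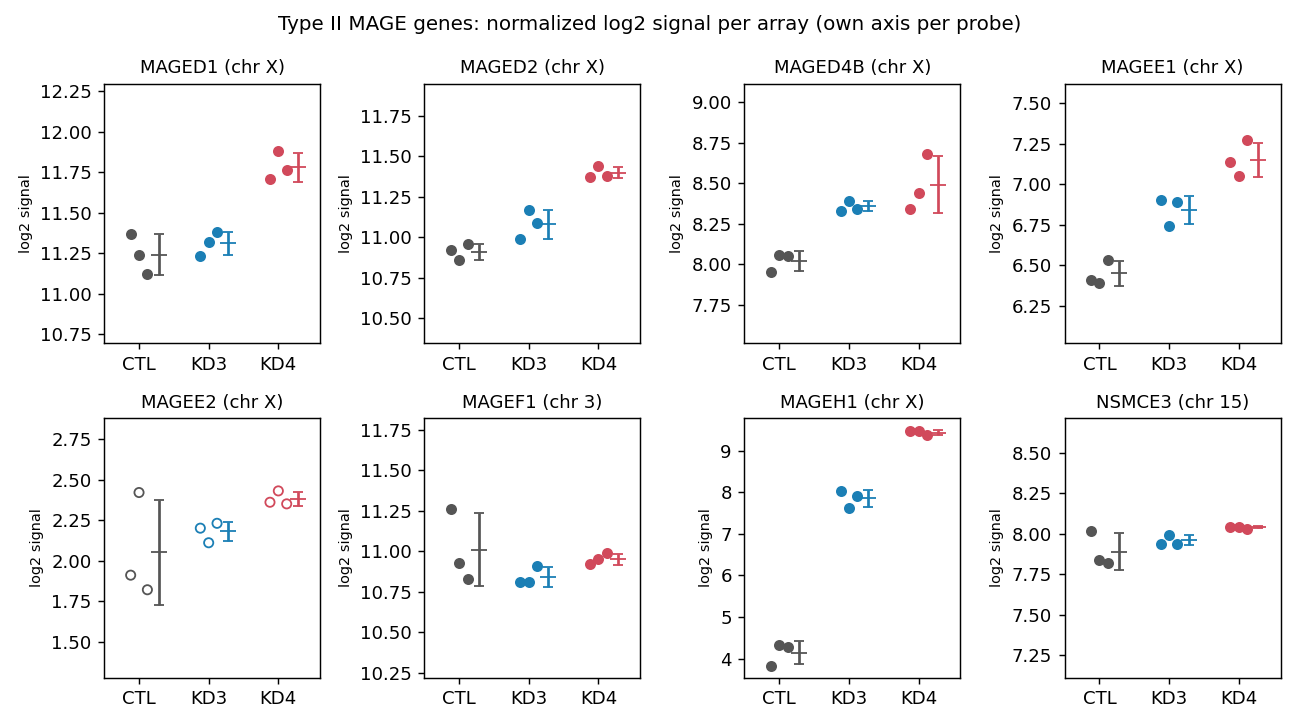
Normalized log2 signal of the probe of each type II MAGE gene (vertical axis, separate for each gene) on the 3 arrays of CTL, KD3 and KD4. Filled points are arrays with the probe well above background, open points arrays without, and the bars are the mean and SD of 3 arrays. MAGEH1 lies near 4 in CTL, between 7.63 and 8.02 in KD3 and between 9.37 and 9.47 in KD4, while MAGEF1 lies between 10.81 and 11.26 and NSMCE3 between 7.82 and 8.04.

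MAGEH1, which encodes one of the smallest MAGE proteins and binds the p75 receptor, moved most of the family. Its log2 signal in CTL was 3.83, 4.33 and 4.29. In KD3 it was 8.02, 7.63 and 7.91, and in KD4 9.47, 9.47 and 9.37. All 3 groups were separate, with the lowest KD3 array 3.29 above the highest CTL array. Means and SDs of 3 arrays were 4.15 ± 0.276 for CTL, 7.85 ± 0.204 for KD3 and 9.43 ± 0.0586 for KD4. This is a log2 difference from CTL of 3.70 in KD3, or 13.0-fold, and of 5.28 in KD4, or 38.9-fold. Only 4 of the 32276 probes had a larger rise in KD3 and only 6 in KD4, which restates the choice of the family. The CTL signal was low, and background correction by normexp reduced the differences to 1.88 and 3.30. Within the slides the arrays were printed on, the difference was 3.32 and 4.13 in KD3 and 5.11 and 5.64 in KD4. Slide 1 held 1 KD3, 2 KD4 and 2 CTL arrays, and slide 2 held 2 KD3, 1 KD4 and 1 CTL array, so within-slide differences rest on 1 or 2 arrays a group.

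The direct comparison of the knock-downs was not itself used to choose MAGEH1. It rests on the same KD3 and KD4 arrays as the differences that were, so it is not independent of the choice. KD4 was above KD3 by a log2 difference of 1.58 (95% confidence interval 1.24 to 1.92), or 2.99-fold, with a limma adjusted p of 0.0021, and the lowest KD4 array was 1.34 above the highest KD3 array. It was the only member of the family called in this comparison, in which 0.204% of all tested probes and 2.37% of tested X-chromosome probes were called higher. Within the slides the difference was 1.79 and 1.5. By the methods' t-test, adjusted over all probes, MAGEH1 had an adjusted p of 0.17, the highest of its alternatives, which began at 1.2e-06.

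Among the D subfamily, MAGED1 had log2 signals of 11.37, 11.24 and 11.12 in CTL, 11.23, 11.32 and 11.38 in KD3 and 11.71, 11.88 and 11.76 in KD4. CTL and KD3 overlapped, and every KD4 array was above all others. MAGED1 rose in KD4, by 0.54 (SE 0.088, 1.45-fold, limma adjusted p = 0.0027), while in KD3 the difference was 0.07 (95% confidence interval -0.13 to 0.27, limma adjusted p = 0.65). KD4 was also above KD3, by 0.47 (95% confidence interval 0.27 to 0.67, limma adjusted p = 0.032). That last result was lost without any one of the KD3 or KD4 arrays or without CTL replicate 2 (0.42 to 0.51, highest adjusted p = 0.12 with an array left out). Within the slides KD4 was above CTL by 0.64 (2 arrays against 2) and 0.33 (1 against 1), and above KD3 by 0.50 (2 against 1) and 0.40 (1 against 2).

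MAGED2, whose loss in humans causes a transient salt-wasting disorder before birth, had log2 signals of 10.92, 10.86 and 10.96 in CTL, 10.99, 11.17 and 11.09 in KD3 and 11.37, 11.44 and 11.38 in KD4. The 3 groups did not overlap, though only 0.03 separated CTL from KD3. MAGED2 rose in KD4, by 0.48 (SE 0.0703, 1.4-fold, limma adjusted p = 0.0016), and the difference held in all 19 alternatives (0.46 to 0.51). In KD3 the difference was 0.17 (95% confidence interval 0.01 to 0.33), which did not pass (limma adjusted p = 0.13). Between the knock-downs it was 0.32 (0.16 to 0.48, limma adjusted p = 0.058).

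The probe of MAGED4B, a gene expressed mainly in brain, cannot be told apart from its near-identical neighbour MAGED4, which had no probe of its own here. Its log2 signal was 7.95, 8.06 and 8.05 in CTL, 8.33, 8.39 and 8.34 in KD3 and 8.34, 8.44 and 8.68 in KD4. Both knock-downs lay above CTL and overlapped each other. MAGED4B rose by 0.33 in KD3 (SE 0.0932, limma adjusted p = 0.037) and by 0.46 in KD4 (limma adjusted p = 0.0071). The rise in KD3 was near the threshold and was lost when any array of KD3 or CTL, or KD4 replicate 2, was left out (0.30 to 0.35, highest adjusted p = 0.11). Between the knock-downs the difference was 0.13 (95% confidence interval -0.08 to 0.34).

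MAGEE1, an intronless gene whose protein binds dystrobrevin at synapses and muscle membranes, had 10 spots per array, more than any other tested member. Its log2 signal was 6.41, 6.39 and 6.53 in CTL, 6.90, 6.74 and 6.89 in KD3 and 7.14, 7.05 and 7.27 in KD4. The groups did not overlap. MAGEE1 rose by 0.40 in KD3 (SE 0.0839, 1.32-fold, limma adjusted p = 0.012) and by 0.71 in KD4 (1.63-fold, limma adjusted p = 6e-04), the largest rise in KD4 among the members tested against CTL. Normexp reduced the differences to 0.25 and 0.46. Between the knock-downs the difference was 0.31 (95% confidence interval 0.12 to 0.50, limma adjusted p = 0.094). Its close relative MAGEE2 gave log2 signals of 1.82 to 2.42 in CTL, 2.11 to 2.23 in KD3 and 2.35 to 2.43 in KD4, not well above background on any array.

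The autosomal members did not pass in either knock-down. MAGEF1, which directs a ligase to a protein of the iron-sulfur assembly pathway, had log2 signals of 11.26, 10.93 and 10.83 in CTL, 10.81, 10.81 and 10.91 in KD3 and 10.92, 10.95 and 10.99 in KD4. CTL overlapped both knock-downs, with CTL replicate 1 highest of all arrays. The difference from CTL was -0.16 in KD3 (95% confidence interval -0.41 to 0.09, limma adjusted p = 0.35) and -0.05 in KD4 (-0.30 to 0.19, limma adjusted p = 0.75). NSMCE3 had log2 signals of 8.02, 7.84 and 7.82 in CTL, 7.94, 7.99 and 7.94 in KD3 and 8.04, 8.04 and 8.03 in KD4. Its difference was 0.06 in KD3 (-0.10 to 0.23, limma adjusted p = 0.60) and 0.14 in KD4 (-0.02 to 0.31, limma adjusted p = 0.18). Its KD4 arrays lay above those of CTL by as little as 0.01, and its KD3 arrays overlapped them.

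**Figure D2:**
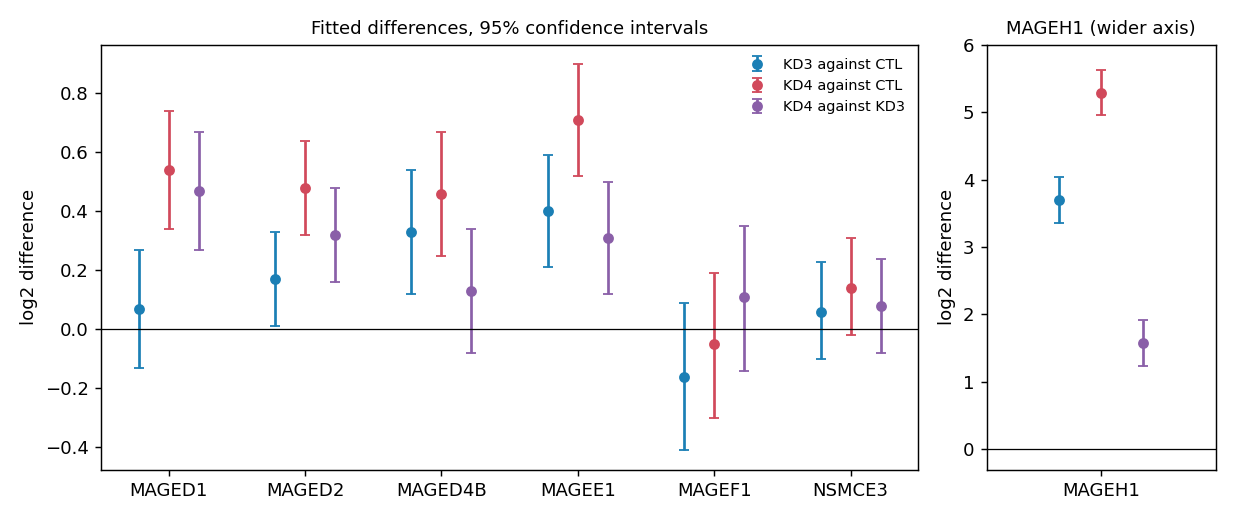
Fitted log2 differences (vertical axis) of 7 type II MAGE genes for KD3 against CTL, KD4 against CTL and KD4 against KD3, with MAGEH1 on a wider axis of its own. Points are limma estimates and bars 95% confidence intervals. Those of MAGEH1 against CTL are not a test, since these differences chose the family. In KD4 the intervals of MAGED1, MAGED2, MAGED4B and MAGEE1 lie above 0, and those of MAGEF1 and NSMCE3 include 0.

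MAGEH1 is left out of the counts against CTL, since its differences from CTL chose the family. Of the other 6 tested genes 2 rose in KD3 (MAGEE1 and MAGED4B), where 9.64% of all tested probes and 19.6% of tested X-chromosome probes rose. In KD4 4 of the 6 rose, all on the X chromosome, where 13.6% of all tested probes and 24.2% of X-chromosome probes rose. In KD3 10.4% and in KD4 14.8% of all probes fell, and 0 of the 6 genes, too few genes to tell 0 from these shares. MAGEE1 and MAGED4B rose in both knock-downs, where 7.06% of all probes and 15.8% of X-chromosome probes rose in both and 8.42% of all fell in both. The 6 genes had a median difference from CTL of 0.12 (KD3) and 0.47 (KD4), compared with 0.011 and 0.0404 over all tested probes and 0.072 and 0.0796 over tested X-chromosome probes. At the fold threshold 0 of the 6 were called in either knock-down, where 1.12% of all probes and 6.72% of X-chromosome probes were called higher in KD3, and 1.42% and 7.47% in KD4. Every knock-down array was above every CTL array for 3 of the 6 in KD3 and 5 of the 6 in KD4, and for 18.5% and 23.1% of all tested probes and 27.6% and 34% of those on the X chromosome.

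Between the knock-downs, all 7 tested genes had a higher mean in KD4 than in KD3, as did 54% of all and 49.2% of X-chromosome probes. For 6 of the 7 every KD4 array was above every KD3 array, as for 14.1% of all and 18.1% of X-chromosome probes. The difference passed the test in 2 (MAGEH1 and MAGED1), against 0.948% of all and 4.11% of X-chromosome probes. Without MAGEH1, 6 of 6 genes had a higher mean in KD4, 5 had no overlap and 1 passed. By the methods' t-test, again adjusted over all probes, MAGED2 and MAGEE1 still passed in KD4 (adjusted p = 0.026 and adjusted p = 0.037), while MAGED1 and MAGED4B did not (adjusted p = 0.061 and adjusted p = 0.14), nor did MAGEE1 and MAGED4B in KD3 (adjusted p = 0.083 and adjusted p = 0.074).

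The promoters of 7 members are held in the RefSeq table of GRCh38.p14 as windows of 300 bases, 250 before and 50 after a start site, and MAGEH1 is not among them. CG dinucleotides, the sites of DNA methylation, read the same on both strands and occur in 96.04% of all 35116 windows, with a median of 14 per window. MAGEF1 held 21 and NSMCE3 26. Among X-linked members MAGEE1 held 12 and MAGEE2 10, MAGED2 10 and 11 at its start sites, MAGED1 10 and 20, and MAGED4B 22 and 25. The X-linked members that rose therefore stood on both sides of the median. Windows of the member with the largest rise among those tested against CTL, MAGEE1 (chrX:76427460-76427759, plus strand), and of an autosomal member that did not pass, NSMCE3 (chr15:29269773-29270072, minus strand), are given to show this contrast in CG content, with each CG in capitals.
MAGEE1: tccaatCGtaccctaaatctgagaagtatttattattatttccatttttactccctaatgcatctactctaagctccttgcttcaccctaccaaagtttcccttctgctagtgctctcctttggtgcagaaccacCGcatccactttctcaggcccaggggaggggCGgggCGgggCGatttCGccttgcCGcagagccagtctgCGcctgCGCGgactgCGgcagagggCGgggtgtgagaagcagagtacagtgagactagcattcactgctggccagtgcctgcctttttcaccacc
NSMCE3: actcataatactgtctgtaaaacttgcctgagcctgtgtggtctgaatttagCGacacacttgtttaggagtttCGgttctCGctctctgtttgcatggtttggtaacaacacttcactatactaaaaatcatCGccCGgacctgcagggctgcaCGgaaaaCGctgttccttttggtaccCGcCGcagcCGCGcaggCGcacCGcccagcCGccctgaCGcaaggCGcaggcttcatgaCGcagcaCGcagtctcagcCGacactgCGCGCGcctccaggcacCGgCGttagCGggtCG

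The X-linked members lie among other genes whose order is known from RefSeq, so up to 5 tested genes on each side of each member were read from the same fit. Counted once and without the members, these were 36 genes, of which 9 rose in both knock-downs and 0 fell in both. Of the 9, SPANXN5 and KLF8 entered the tests only through the knock-down arrays, where their signals were higher, which favours a rise. Of all 608 tested X-chromosome genes 105 rose and 50 fell in both, so that 25% of the flanking genes and 17.3% of the X-chromosome genes rose. The median difference of the flanking genes was 0.22 in KD3 and 0.23 in KD4, and that of all X-chromosome genes 0.07 and 0.09. The nearest tested genes to MAGEH1 were VCF2 and RRAGB. The gene beyond RRAGB was KLF8, a zinc finger repressor well above background on just 2 of the 3 CTL arrays. Its differences were 5.65 in KD3 and 6.04 in KD4, given as a description. Between MAGEH1 and KLF8, RRAGB had differences of 0.33 and 0.42 and did not pass (limma, adjusted p = 0.19 and adjusted p = 0.075). Farther on the same side, SPIN2B, which has a near-identical copy, rose by 0.33 and 0.34. Beyond KLF8, SPIN3 rose in KD3 only (0.40, limma adjusted p = 0.0059) and UBQLN2 did not pass. On the other side VCF2 rose in KD3 (0.76, limma adjusted p = 0.013) but did not pass in KD4 (0.37). Farther on that side PAGE2 (0.63), PAGE2B (0.48) and APEX2 (0.66) rose in KD4 only, and ALAS2 did not pass in either. Steep rises therefore stood beside small differences in the same stretch.

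Around MAGED1 and MAGED4B, SPANXN5, a testis-expressed gene, did not stand well above background in CTL (mean log2 signal 2.66). Its mean was 5.09 in KD3, a measured 5.41-fold, and 6.62 in KD4, a measured 15.5-fold. These folds rest on a CTL signal at background, so their size is uncertain. The probe entered the tests only through the knock-down arrays, so its differences from CTL are given as a description. On the other side of MAGED1, CCNB3, a meiotic cyclin, rose by 0.61 and 0.51. Nearer to MAGED1 there, GSPT2 had differences of -0.11 and -0.13 and did not pass. Next to MAGED2 lies TRO, also called MAGED3, which rose in both. Around MAGEE1, NEXMIF rose by 1.25 and 1.30 and PGAM4, a retrocopy whose probe may also detect its parent gene, by 1.6 in each, with COX7B and ATP7A at 0.22 to 0.36. In KD3 the rise of ATP7A was lost in 12 of 19 alternatives. The immediate neighbours of MAGEE1, PBDC1 and ATRX, did not pass in either knock-down. Normexp reduced several of these rises, to 2.82 and 3.16 for KLF8, to differences of 0.49 and 1.27 for SPANXN5 to 0.37 and 0.30 for CCNB3 and to 0.62 and 0.66 for NEXMIF.

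**Figure D3:**
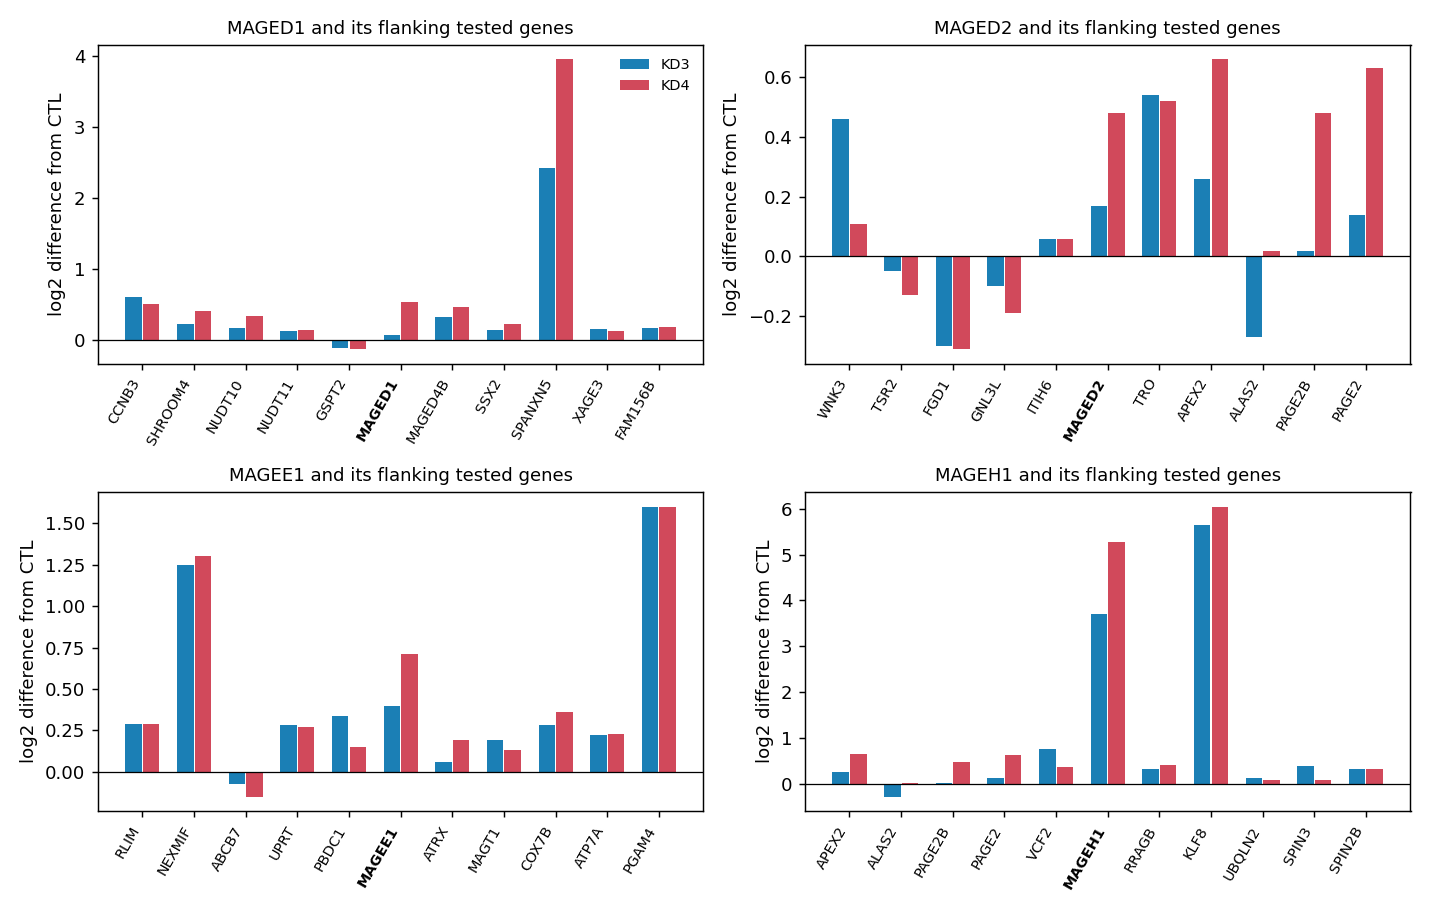
Fitted log2 difference from CTL (vertical axis, separate for each panel) of MAGED1, MAGED2, MAGEE1 and MAGEH1 and of the 5 tested genes on each side, in the order of RefSeq and not to genomic scale. Bars are KD3 and KD4. KLF8 and MAGEH1 stand out in their panel, at 5.65 and 3.70 in KD3, among genes with differences of at most 0.76.

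By the root mean square difference over the 9 arrays of log2 signals taken relative to the CTL mean, the 5 genes nearest to MAGEH1 included SOX11, a transcription factor of neural progenitors. SOX11 was well above background on all 9 arrays, at a difference of 1.00, where MAGEH1 itself had a root mean square of 3.73. The others were SPOCK3, UNC5D, PCDH11Y and SRPX2. SRPX2 was well above background on 1 CTL array and the other three on 0, so their distances rest on CTL signals at background and are not ranked. The probe named for PCDH11Y may detect PCDH11X, which is near-identical in sequence, so it is no evidence of a Y-linked transcript. The likeness was found among all tested probes and has no test.

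Outside the 8 genes, the other type II genes on the array were TRO, MAGEL2 and NDN. TRO, a trophoblast adhesion gene, rose by 0.54 in KD3 and 0.52 in KD4 (limma, adjusted p = 5.8e-04 and adjusted p = 5.9e-04), and its second probe by 0.45 and 0.42. MAGEL2 had differences of 0.14 and 0.03 and did not pass, and NDN was below the background limit on all 9. Of 20 type I genes on the array 8 were tested. MAGEA2B, which shares its sequence with MAGEA2, had the largest differences from CTL among them and is not counted as a rise. Its mean log2 signal was 3.2 in CTL, where no array had it well above background. The mean was 4.31 in KD3, a measured 2.16-fold, and 5.42 in KD4, a measured 4.67-fold, over a CTL signal at background. The probe entered the tests only through the knock-down arrays, so its differences from CTL are given as a description. KD4 was above KD3 by 1.11 (limma adjusted p = 0.012), and normexp left differences from CTL of 0.22, which did not pass, and 0.61. The other 7 tested type I genes did not pass, with medians over all 8 of 0.24 and 0.43.

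Partners of MAGE proteins were read from the same fit. In it 9.64% of all tested probes rose and 10.4% fell in KD3, and 13.6% rose and 14.8% fell in KD4. Of 5 tested ubiquitin ligase and deubiquitinase partners (TRIM27, TRIM28, PJA1, NSMCE1 and USP7) 0 passed in KD3 by limma and 1 in KD4, PJA1, the X-linked ligase bound by MAGED1, which rose by 0.31 (adjusted p = 0.032), a call lost in 7 of 19 alternatives. All 8 tested genes of the SMC5/6 complex, the complex of NSMCE3, were well above background on every array. Of these 0 passed in KD3 and 1 in KD4, SMC6, which fell by 0.23 (limma adjusted p = 0.02). The medians were 0.05 and 0.04.

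Of 10 tested receptor and signalling partners of MAGED1 and MAGEH1, 2 rose and 4 fell in KD3, and 3 rose and 3 fell in KD4. Over all tested probes 9.64% rose and 10.4% fell in KD3, and 13.6% rose and 14.8% fell in KD4. NTRK2, the receptor of brain-derived neurotrophic factor, fell, with differences of -2.20 in KD3 and -2.15 in KD4 (limma, adjusted p = 5.8e-05 and adjusted p = 4.9e-05), or -1.24 in each after normexp, but its second tested probe had differences of 0.08 and 0.20 and did not pass. XIAP, an X-linked inhibitor of caspases that binds MAGED1, rose by 0.86 and 1.07 (limma, adjusted p = 0.0015 and adjusted p = 3.6e-04), and its second probe by 0.54 and 0.74. The netrin receptors UNC5A and UNC5B fell, UNC5A at -0.57 in KD3 and -0.60 in KD4, UNC5B at -0.41 and -0.49. After normexp UNC5A stood at -0.24 and -0.22 and did not pass, and in each knock-down its fall was lost in 9 of 19 alternatives. BEX3, an X-linked partner of p75, rose by 0.36 and 0.27. NGFR, which encodes p75, fell by 0.59 in KD3 (limma adjusted p = 0.007) or -0.26 after normexp, but had a difference of -0.03 in KD4. TRAF6 rose by 0.23 in KD4.

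For MAGED2, the salt transporter SLC12A1 was below the background limit on all 9 arrays, SLC12A3 was dim and did not pass, and GNAS, a stimulatory G protein subunit, fell, with differences of -0.28 (limma adjusted p = 0.03) and -0.24 (limma adjusted p = 0.045), calls lost in 9 and 14 of 19 alternatives. Of 6 tested genes of the dystrobrevin complex, with which MAGEE1 associates, 1 fell in KD3 (DTNB at -0.31) and 3 in KD4 (DMD at -0.52, DTNB at -0.38 and UTRN at -0.24), and 0 rose. Of all tested probes 10.4% fell in KD3 and 14.8% in KD4. A second probe of DMD stood at -0.07 in KD4 and did not pass, and 4 further probes of UTRN ranged from -0.68 to 0.00, of which 2 passed. The falls of DTNB in KD3 and of UTRN in KD4 were near the threshold (limma adjusted p = 0.039 and adjusted p = 0.047) and were lost in 13 and 14 of 19 alternatives. BEX3, NGFR, TRAF6, PJA1, SMC6, DMD and UTRN were singled out after their values were seen.

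**Figure D4:**
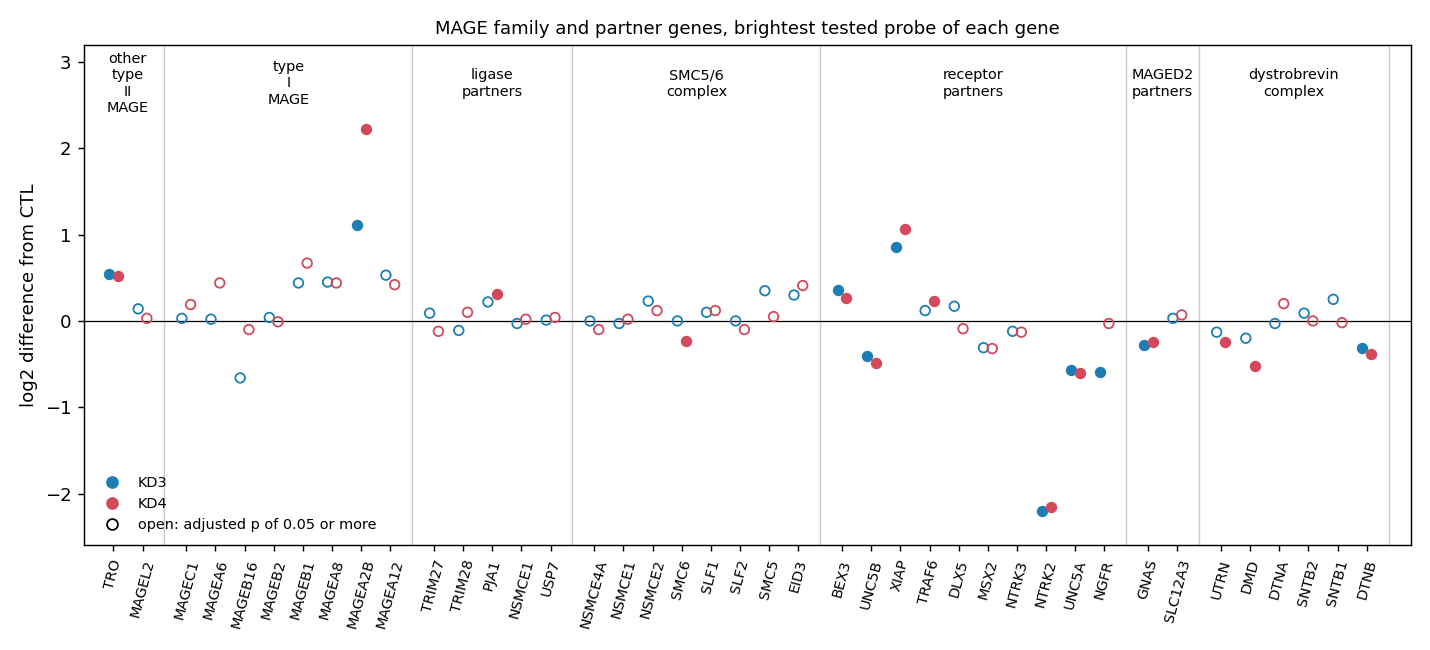
Fitted log2 difference from CTL (vertical axis) of other MAGE genes and of partner genes, by list, for the brightest tested probe of each gene. Filled points had an adjusted p under 0.05 by limma, open points did not. MAGEA2B stands at 2.22 in KD4, a description over a CTL signal at background and not a test, though its points are filled. NTRK2 falls by 2.20 in KD3, while the SMC5/6 genes lie between -0.23 and 0.41.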

How the data were processed

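RNA of stable HEK293 populations was hybridized to 9 one-color Agilent arrays. For every array the authors deposited scanner output holding spot intensity, written by Agilent Feature Extraction 10.10.1.1, after background subtraction and spatial detrending. A table of log2 values deposited beside it was quantile normalized in GeneSpring (quintile in the methods), whose log base is not stated in the table. Against the values computed here that table differed by a median of -0.0745. It was used as an alternative.

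Control spots were left out, as were spots marked as outliers (260 to 634 of the other 58717 per array). The remaining signals were put on the log2 scale, quantile normalized between arrays (limma 3.58.1, R 4.3.3) and averaged over the spots of a probe. Of 42405 probes, 21 lacked a value somewhere and were removed. A probe entered the tests if all 3 arrays of any group had it well above background. Groups were compared by lmFit and eBayes over 9 arrays with Benjamini-Hochberg adjustment. Probes were named through RefSeq accessions in a gene table of GRCh38.p14 (25413 probes); the array design uses GRCh37, so no probe coordinates are given. The members, gene lists and comparisons were chosen with earlier results of these data known. Genes outside the family are represented by their brightest tested probe, and up to 4 are named per list, by the smaller of the changes in KD3 and KD4 among those that passed in both. Of the listed and flanking genes, 2 are not reported here and are in no count of those genes. The fit was tested on simulated data. The number of arrays limits the precision. Alternatives were 75th percentile scaling, normexp (offset 50), the deposited log2 values, testing all probes or those well above background throughout, the methods' t-test (adjusted and unadjusted), only the groups compared, the replicate number or slide as a block, no fold threshold, and each array left out.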

Additional observations from a re-analysis of the deposited data

Results flagged for a closer look

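KD4 and KD3 are effects of different hairpins against the same control, and their difference was tested directly in the limma fit over all probes. Among the members it passed in MAGEH1, with KD4 higher by 1.58 (adjusted p = 0.0021, means 7.85 in KD3 and 9.43 in KD4), and in MAGED1, with KD4 higher by 0.47 (adjusted p = 0.032). The MAGED1 result was lost in 11 of 19 alternatives (0.42 to 0.51), that of MAGEH1 in 1 of 19. Among their relatives and neighbours KD4 was higher in MAGEA2B by 1.11 (limma adjusted p = 0.012) and in SPANXN5 by 1.52 (limma adjusted p = 3.9e-04). Among partner genes, NGFR was higher in KD4 by 0.57 (limma adjusted p = 0.038), which was lost in 13 of 19 alternatives (0.20 to 0.75, adjusted p between 0.014 and 0.24). The SMCHD1 transcript was also lower in KD4 than in KD3, by a difference of -0.51 to -0.56 over its 3 probes (limma, adjusted p = 0.014 to 0.09), and its part in these differences was not tested.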

How the results depend on the processing

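The number of members called at 1.8-fold was 1 in each comparison and 1 to 1 when each array was left out. In both comparisons with CTL that gene was MAGEH1, which the choice of the family fixed, so its count there says nothing of stability. Without the fold threshold, and with MAGEH1, the number was 3 in KD3 against CTL, 5 in KD4 against CTL and 2 in KD4 against KD3. By the methods' t-test, adjusted over all probes, it was 0 in KD4 against KD3, and 1 by that t-test without adjustment. Of 399 values of the 7 tested members under alternatives, 368 were unchanged, 25 no longer passed and 3 newly passed. A further 2 moved by more than the spread (MAGEH1 under normexp) and 1 changed sign. The sign change was MAGEF1 in KD4 without CTL replicate 1, at 0.07, within a range of -0.14 to 0.07 over single arrays left out. Unchanged meant the same direction and side of the threshold. For MAGEH1 against CTL, which had no test, it meant a shift smaller than the spread, in 18 of 19 alternatives for each knock-down. The 399 include results that did not pass in the main fit and so could not be lost. NGFR in KD4 changed sign under 75th percentile scaling, at 0.08, and with KD4 replicate 2 (0.01) or CTL replicate 1 (0.04) left out, within a range of -0.1 to 0.04 over single arrays left out. Of 792 values of other named genes, 154 no longer passed. The causes were not tested.

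With the replicate number as a block, the numbers of members called stayed at 1, and 1 of 21 results changed, MAGED1 in KD4 against KD3 (0.47, limma adjusted p = 0.089, between 0.0026 and 0.17 over its alternatives). Same-numbered arrays had correlations of -0.08 to 0.14 between their deviations from the group means, and other-numbered arrays of different groups -0.14 to 0.14. Of 9 arrays 5 correlated best with their own number. These values do not settle whether the numbers pair the arrays, which the main fit left unpaired. With the slide as a block the members' values shifted by at most 0.04, and MAGED1 in KD4 against KD3 had an adjusted p of 0.063. No array had a saturated spot, and signals near background, as of MAGEH1 in CTL, limit the size of their folds.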
